A study of Mus musculus with 212 samples.

Results

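Small RNA of the mouse brain was examined in strains of the LXS panel that were divided by the level of 1 small RNA, a feature with the identifier chr9_24385. Strains with a variance-stabilized value of chr9_24385 at or below 6.05 were called low, and strains above it were called high. This gave 25 low strains and 34 high strains, which are all 59 LXS strains with a column in the deposited small RNA tables, of 61 strains named in the labels. The labels list 84 libraries for the low strains and 112 for the high strains. The other strains were the founders of the panel, ILS and ISS, which were bred for long and short sleep after ethanol. All mice were untreated. RNA came from the right hemisphere of whole brain, and fragments of 20 to 35 bp were size selected for the libraries. The labels used here name neither age nor sex. The deposited tables hold 1 value per strain, which is the authors' value for that strain, so strains were the replicates and no error within a strain can be given. The groups were chosen by the values of chr9_24385, so the difference of that feature between them is a description and was not tested.

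A recombinant inbred panel is made by crossing founder strains and inbreeding the descendants, so that each strain is fixed for the allele of 1 founder or the other at most loci. Brain microRNAs are short RNAs cut from hairpin precursors. They guide Argonaute proteins to messenger RNAs through the seed near their 5′ end and lower the output of those messages. An identifier made of a chromosome and a running number is the form in which programs that predict small RNA genes from reads name a candidate, and it does not show that the RNA acts as a microRNA. The sequence and the exact position of chr9_24385 are not used here. The comparison addressed which other small RNAs of the brain differed between strains with little and with much of this RNA.

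The mature sequences of the microRNAs with a name among the 5 features of smallest p in that comparison are shown next, together with miR-350-3p, the tested microRNA with the strongest correlation with chr9_24385 across strains, which was negative. Sequences and positions come from RefSeq with the build GRCm38.p6, and the seed, bases 2 to 8 from the 5′ end, is in capitals.
miR-410-3p: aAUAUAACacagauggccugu
miR-3059-5p: uUUCCUCUcugccccauagggu
miR-673-5p: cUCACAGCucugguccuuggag
miR-181a-5p: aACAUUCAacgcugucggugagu
miR-350-3p: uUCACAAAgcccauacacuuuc
The 5 microRNAs had 5 distinct seeds. The gene of miR-410-3p lies at chr12:109743764-109743784 on the plus strand, and that of miR-673-5p at chr12:109572004-109572025 on the plus strand. Both belong to the Dlk1-Dio3 imprinted region, which is known for a large cluster of brain microRNAs. miR-3059-5p lies at chr10:101772704-101772725 on the plus strand and miR-350-3p at chr1:176772342-176772363 on the minus strand. miR-181a-5p, a microRNA that is abundant in brain and in lymphocytes, has 2 genes, at chr1:137966468-137966490 and chr2:38852741-38852763, both on the plus strand. None of the 5 lies on chromosome 9.

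The level of chr9_24385 fell into a low and a high range of strains. On the variance-stabilized scale, which is log2-like, the low strains lay between 4.65 and 5.87 with a median of 5.28, and the high strains between 6.23 and 7.25 with a median of 6.56. The normalized signal, on a linear scale, ran from 0.670 to 6.87 in the low strains (mean 2.78 ± 1.58, SD, n = 25) and from 9.59 to 37.9 in the high strains (mean 17.8 ± 6.24, SD, n = 34). The ratio of the means was 6.41 and that of the medians 7.01. The lowest strains were LXS41, LXS72, LXS52, LXS102 and LXS97, and the highest were LXS94, LXS86, LXS14, LXS24 and LXS64. The threshold lay in the widest gap between neighbouring strains, 0.358 between LXS43 at 5.87 and LXS8 at 6.23. The next widest gap was 0.320, among the lowest strains, between LXS97 and LXS25. On the scale of log2(normalized signal + 1) the widest gap divided the same 25 and 34 strains, with a width of 0.428 between LXS43 and LXS39, against 0.307 for the next. Both scales hold values of the feature that set the groups, so the gaps are a description and whether there are 2 levels was not tested.

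**Figure D1:**
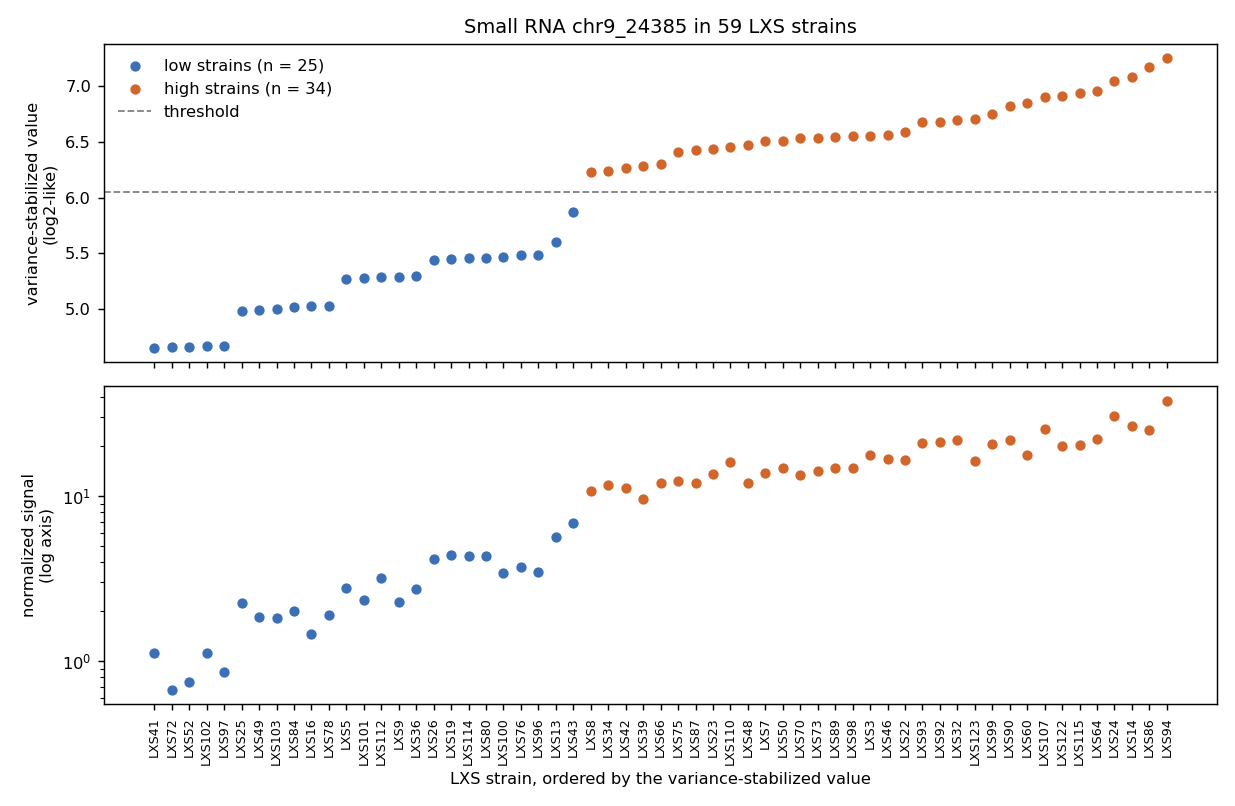
Level of chr9_24385 in each of 59 LXS strains, ordered by the variance-stabilized value: the upper panel gives that value with the threshold of 6.05 as a dashed line, and the lower panel the normalized signal on a log axis. Blue points are the 25 low strains and orange points the 34 high strains, and the widest step between neighbours is at the threshold.

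The low strains did not vary smoothly. Values at the low end of the variance-stabilized table lay on separate steps: above the floor of 3.87 the lowest value of any feature was 4.62, and no value of the table lay between 4.67 and 4.97, between 5.04 and 5.22 or between 5.29 and 5.41. Numbering the distinct values of each strain upward from the floor put chr9_24385 on step 1 in 5 strains, step 2 in 6, step 3 in 5, step 4 in 7, step 5 in LXS13 and step 7 in LXS43. In the high strains it lay on steps 11 to 33, with a median of 16. Steps of this kind arise where whole numbers are transformed, but no source used here says whether 1 step stands for 1 read. chr9_24385 was at the floor in 0 of 59 strains, so it was listed above the floor in each low strain. Low strains on the same step differ only in the value that their columns give to that step.

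Among features of like abundance chr9_24385 varied widely. Its mean normalized signal over all strains was 11.5, rank 623 of 881 features. Its SD across strains was 0.787 on the variance-stabilized scale, which ranked 9 among 210 features with a mean normalized signal from 5 to 20, whose median SD was 0.306. Features with a larger SD at this level included chr4_11381 at 1.22, miR-9769-3p at 1.15, chr10_26214 at 1.06, miR-96-3p at 1.00 and miR-5121 at 0.935. The rank of chr9_24385 rests on the values that set the groups and is given as a description.

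The level of chr9_24385 was next set against the technical labels, as a description. Of the low strains, 14 had most of their libraries in sequencing batches 1 to 3 and 11 in batches 4 and 5; of the high strains, 18 and 16. Both ranges were present in both classes of batches: low strains of the earlier batches ran from 0.670 to 6.87 in normalized signal with a median of 3.31, and low strains of the later batches from 0.752 to 3.73 with a median of 2.01. High strains ran from 10.7 to 37.9 with a median of 19.3 in the earlier batches and from 9.59 to 24.97 with a median of 14.5 in the later ones. Some library names carry the word HIGH, MED or LOW, and no source used here says what the words mean. HIGH stood on 3 low and 5 high strains, MED on 4 and 5, and LOW on 4 and 6, and the distribution of HIGH and LOW over the groups did not pass Fisher's exact test (two-sided p = 1, odds ratio 1.11). Each word stood on strains of both groups.

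The groups differed in 1 of 9 technical measures. The number of features at the floor of the variance-stabilized table was 8.44 ± 2.96 (SD, n = 25) in low strains, from 3 to 16, and 6.21 ± 1.67 (SD, n = 34) in high strains, from 2 to 9. The difference in means was -2.23 (permutation test, two-sided, p = 0.00064, adjusted p = 0.00576 over the 9 measures by the Benjamini-Hochberg method). It was -1.81 among strains of the earlier batches, where it no longer passed (permutation test, p = 0.0409, adjusted p = 0.0819 over 2 measures), and -2.83 among those of the later batches (permutation test, adjusted p = 0.00708). Of 58 features that were at the floor in at least 1 strain, 39 were so in a larger share of low strains and 19 in a larger share of high strains. Many of these counts rest on a single strain. Examples are miR-881-3p, at the floor in 1 low and 0 high strains, and miR-1249-5p, in 0 low and 1 high strain. The widest contrast was miR-6905-5p, at the floor in 13 of 25 low strains and 9 of 34 high strains, and next miR-8114, at the floor in 12 and 9. miR-466i-3p, of the Sfmbt2 group, was at the floor in 6 low strains and in 1 high strain. These names were chosen after their values were seen. The number of features with a normalized signal of 0, another of the 9 measures, had a mean of 0.441 in high and 0.36 in low strains. That difference was 0.081, of the opposite sign (permutation test, two-sided, p = 0.812, adjusted p = 0.9495). Over all strains 24 normalized values were 0, against 422 values at the floor, so most values at the floor had a normalized signal above 0. The sums of each strain's column were 13870000 ± 867700 in low strains and 13470000 ± 719000 in high strains (permutation test, two-sided, p = 0.0568, adjusted p = 0.171). Libraries of batch 1 occurred only among low strains, in LXS41, LXS72, LXS112 and LXS80, and their mean share of libraries did not differ past the threshold (permutation test, two-sided, adjusted p = 0.171). The part of features at the floor and of batch 1 in the results that follow was tested only as far as the fits with these terms or without these strains show.

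**Figure D2:**
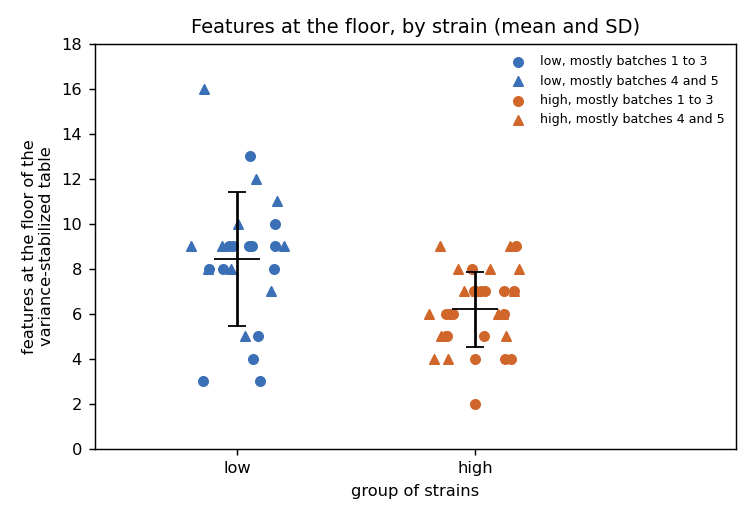
Number of features at the floor of the variance-stabilized table in each strain, by group, with circles for strains with most libraries in batches 1 to 3 and triangles for batches 4 and 5; the black marks are the mean and SD. The low strains reach 16 and the high strains 9, and the groups overlap over most of their range.

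No other small RNA separated the 2 groups of strains. Of the 880 other features, 0 had groups of strains that did not overlap in normalized signal. Of 646 features with a mean normalized signal of at least 10, limma on log2(normalized signal + 1), with batch shares (for each strain, the fraction of its libraries per batch) as covariates, called 1 lower in high strains (0.155% of those tested) and 0 higher (0%) at a Benjamini-Hochberg adjusted p under 0.05. At an unadjusted p under 0.05 there were 24 lower features (3.72%) and 12 higher features (1.86%). The median difference over the 646 features was -0.0024 on the log2 scale and the median size of a difference 0.065. The 95% confidence interval of the difference lay within ±1 for 632 features (97.8%) and within ±0.5 for 588 (91.0%), so for most features a difference of the size seen in chr9_24385 lay outside the interval. The largest difference in size was 0.69, for miR-200c-3p, with an interval from -0.37 to 1.76.

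**Figure D3:**
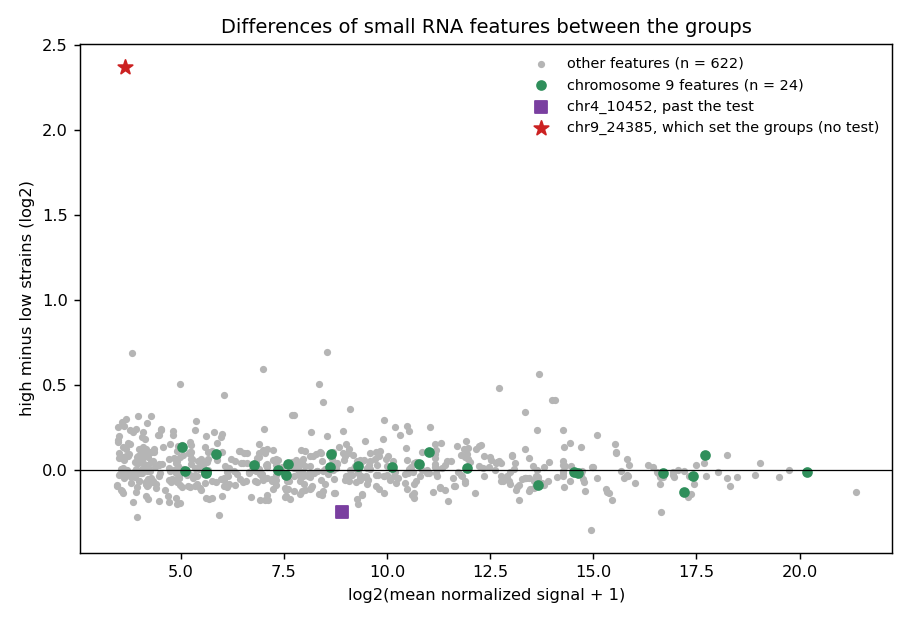
Difference of each small RNA feature between high and low strains (log2, y axis) against its mean level, log2(mean normalized signal + 1), on the x axis: grey points are 622 features, green points 24 features of chromosome 9, the purple square is chr4_10452 and the red star is chr9_24385, which set the groups and is shown without covariates. The star stands far above all other points, and chr4_10452 is the feature that passed the test.

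The feature that passed was chr4_10452, which also carries no microRNA name. Its normalized signal was 387 to 709 with a median of 500.1 in low strains and 316 to 584 with a median of 441.6 in high strains. The groups overlapped over most of their range, and 27 of 34 high strains lay below the median of the low strains. The difference was -0.25 on the log2 scale (SE 0.054, 95% confidence interval -0.36 to -0.14, limma, adjusted p = 0.0139). It was lost without the batch shares in the model (difference -0.21, limma, adjusted p = 0.553). It was also lost in the permutation test over strains (p = 0.0012, adjusted p = 0.462), which holds no batch terms either and has the same difference, and in 6 of the other 18 settings tried. It kept its sign in the strains of the earlier batches alone (-0.29, limma, adjusted p = 0.679) and of the later batches alone (-0.22, limma, adjusted p = 0.608). With the number of features at the floor as a term the difference was -0.28 (limma, adjusted p = 0.0071), and without the strains that have a batch 1 library it was -0.26 (limma, adjusted p = 0.0103). Without LXS9 and LXS90, which share a library with conflicting strain labels, it was -0.26 (limma, adjusted p = 0.0126).

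The next features in order of p did not pass. miR-410-3p had a normalized signal of 145677 to 247173 with a median of 170836 in low strains and of 124383 to 208171 with a median of 161260 in high strains. Its difference was -0.14 on the log2 scale (SE 0.041, limma, adjusted p = 0.239). In these values 24 of 34 high strains lay below the median of the low strains, and the ranges overlapped widely. miR-3059-5p had 407 to 916 with a median of 705 in low strains and 330 to 814 with a median of 559 in high strains, a difference of -0.20 (SE 0.060, limma, adjusted p = 0.280). For this microRNA 27 high strains lay below the median of the low strains. miR-181a-5p, the most abundant feature of the tables, had a median of 2684840 in low strains and 2525120 in high strains, a difference of -0.13 (SE 0.047, limma, adjusted p = 0.722). Of the other features among the 10 of smallest p, miR-673-5p, chr4_9768, miR-7226-3p, miR-3057-5p and miR-350-3p had differences from -0.20 to -0.12. miR-511-3p, which lies within the macrophage mannose receptor gene Mrc1, had a difference of +0.24. Their adjusted p in limma was 0.722 to 0.744.

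**Figure D4:**
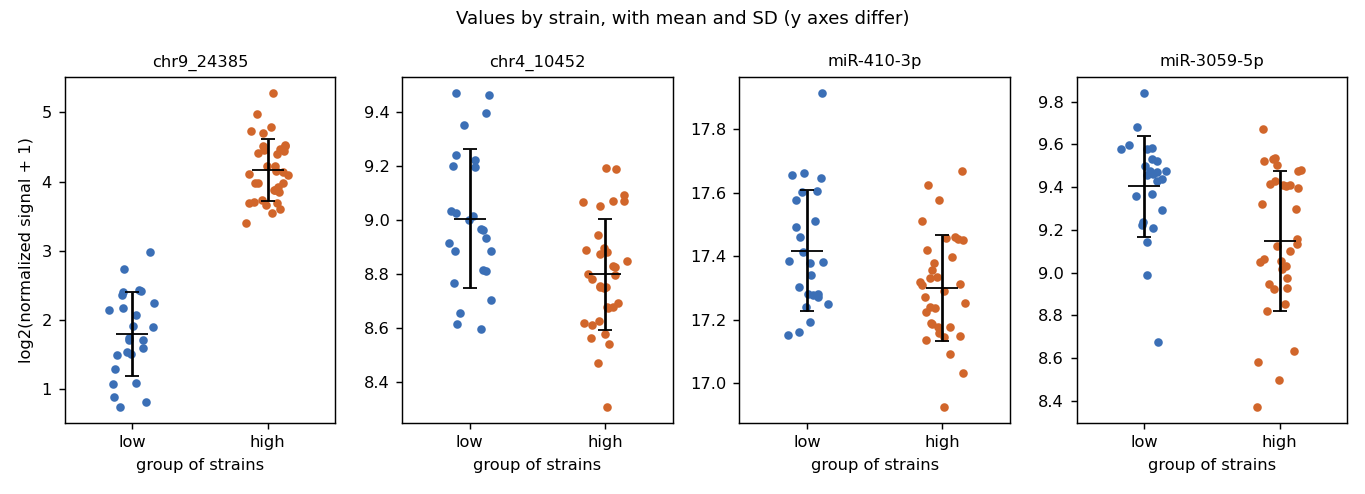
Value of each strain as log2(normalized signal + 1), by group, for chr9_24385 and for the 3 features of smallest p, with the mean and SD in black; the y axes differ. The groups are apart for chr9_24385, which defined them, and overlap for chr4_10452, miR-410-3p and miR-3059-5p.

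Small RNAs of chromosome 9 were compared because they share a chromosome with chr9_24385. Of 35 such features, 30 were placed there by RefSeq, 1 of them (miR-34c-5p) by the name of its hairpin, and 5 by their identifier. The 77 features with a microRNA name that had no match in RefSeq were not placed on a chromosome and are not counted. On chromosome 9, 24 features passed the filter on low values, of which 3 have a further gene on another chromosome. Limma called 0 of the 24, and 0 had an unadjusted p under 0.05, against the 3.72% and 1.86% of all features given above. All 24 confidence intervals lay within ±0.5, and the median difference was 0.01, close to the median over all features. Differences ran from -0.13 for miR-191-5p to +0.14 for chr9_24825.

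The chromosome 9 features cover several known genes. miR-191-5p, which is processed from the same transcript as miR-425, had a median normalized signal of 143331 in low strains and 135731 in high strains (SE of the difference 0.069, limma, adjusted p = 0.834). Its partner miR-425-5p differed by 0.01 (95% confidence interval -0.080 to 0.105). From the cluster of miR-100, let-7a and miR-125b, miR-100-5p differed by -0.09 (limma, adjusted p = 0.847), miR-125b-5p by -0.02 and miR-125b-1-3p by +0.10 (limma, adjusted p = 0.847). miR-138-5p, which is known to limit dendritic spine size in neurons, had a median of 192670 in low and 228269 in high strains, with a difference of +0.09 after the batch terms (95% confidence interval -0.08 to 0.26). miR-34c-3p, of a family known from ciliated cells, differed by +0.03 (95% confidence interval -0.13 to 0.19), and miR-34c-5p, from the same hairpin, by -0.01 (95% confidence interval -0.19 to 0.16). The abundant miR-26a-5p and let-7g-5p differed by -0.01 and -0.02. chr9_24825, the only other feature of this chromosome that has no microRNA name and passed the filter, ran from 11.6 to 55.8 in low strains and from 18.2 to 65.9 in high strains, and its difference had a confidence interval from -0.07 to 0.34. The features chr9_26060, chr9_25779, chr9_24034 and chr9_26202 were below the filter. The summed signal of all chromosome 9 features ran from 1381610 to 2300620 in low strains and from 1465200 to 2342980 in high strains.

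**Figure D5:**
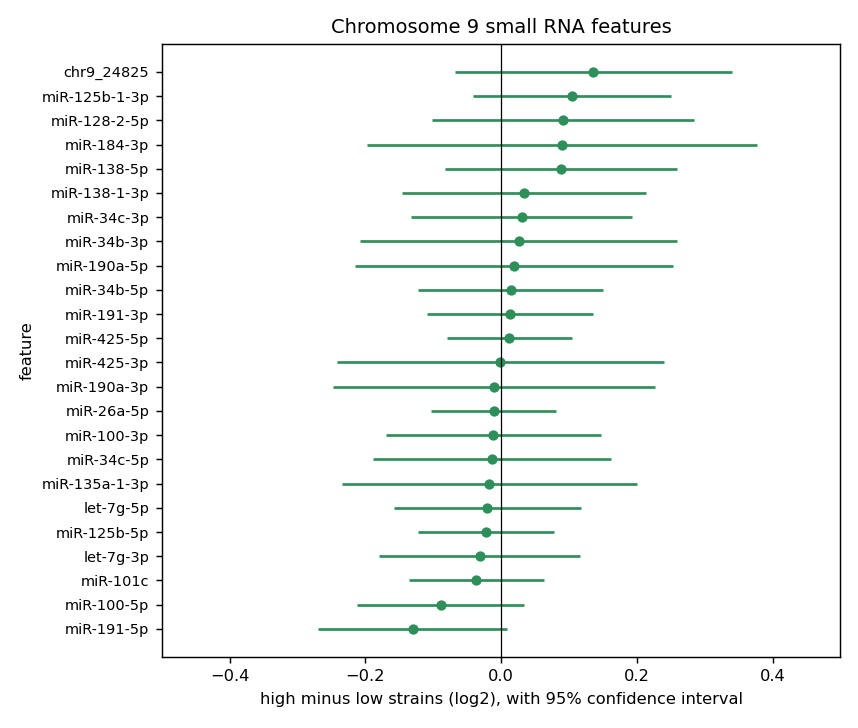
Difference between high and low strains (log2, x axis) with its 95% confidence interval for each of 24 chromosome 9 features that passed the filter, in order of size. All intervals lie within ±0.5 and include 0.

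MicroRNAs known as markers of brain cell types were examined for a shift in the tissue's makeup, since in whole brain fewer cells of a type and less RNA per cell cannot be told apart. Defining markers of brain were abundant in both groups: miR-124-3p of neurons had a median normalized signal of 109194 in low strains and 96332 in high strains, and miR-338-3p of oligodendrocytes 48613 and 37175. The summed signal of the neuron list went the other way from miR-124-3p, with medians of 948064 in low and 1041930 in high strains. That of the oligodendrocyte list had medians of 58796 and 50760. Over all 646 features tested, limma called 0.155% lower and 0% higher. A count of 0 in each cell type list is near that share and is no result about the list. Of 18 neuron features tested, limma called 0, the median difference was -0.02, and all 18 intervals lay within ±0.5. The lowest p among them was that of miR-218-1-3p, which differed by -0.15 (limma, adjusted p = 0.834). Of 5 oligodendrocyte features 0 were called, with differences from -0.15 to 0.01, and miR-219a-5p and miR-338-3p differed by -0.15 and -0.13 (limma, adjusted p = 0.847 for each). Of 8 astrocyte features, 6 vascular features and 5 features of microglia and blood cells, 0 were called, with medians of -0.01, -0.02 and +0.09. The astrocyte and vascular lists share miR-143-3p and miR-143-5p, so they are not separate sets. In erythroid cells miR-451a and miR-144 are the defining microRNAs, and miR-451a differed by -0.13 and miR-144-5p by +0.12 (limma, adjusted p = 0.847 and 0.836).

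In the lists of choroid plexus and ciliated cells, hindbrain and pituitary, some members varied more between strains, and their differences were measured less precisely. Of 21 tested features of choroid plexus and ciliated cells 18 were above 0, with a median difference of +0.26 and 0 called, and only 8 of the 21 intervals lay within ±0.5. Over all 646 features the median difference was -0.0024, 0.155% were called lower and 0% higher, and 91.0% of intervals lay within ±0.5. This list also holds the miR-200 family with miR-141 and miR-429, and miR-182, miR-183 and miR-96, so its median is not that of choroid plexus markers alone. In the interaction with batches given below, the SE was 1.05 for miR-200b-3p and 0.986 for miR-183-5p. It was 0.158 for miR-204-5p and 0.173 for miR-34c-5p. These SEs belong to the interaction, another contrast in another fit, and are not those of the group differences. They serve only to compare members with each other. The summed signal of the list ran from 85684 to 1340100 in low strains and from 67269 to 1520570 in high strains, so strains of both groups differed many-fold among themselves. miR-200c-3p, of the epithelial miR-200 family, had a median of 180 in low strains and 218.1 in high strains, within ranges of 10.6 to 948 and 10.1 to 3837. miR-204-3p, whose partner strand is abundant in choroid plexus, differed by +0.28 (SE 0.14, limma, adjusted p = 0.834), while that partner, miR-204-5p, differed by -0.01. Of 4 hindbrain and Hox cluster features the median was -0.17 with 0 called, and miR-10a-5p differed by -0.35 (95% confidence interval -0.74 to 0.04, limma, adjusted p = 0.834) and miR-10b-5p by -0.25. Of 5 pituitary features 0 were called, and miR-375-3p, known from endocrine cells, differed by +0.34 (95% confidence interval -0.15 to 0.83) and miR-7b-5p by +0.22.

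In the larger families the counts are to be read against all features tested, of which 0.155% were called lower and 0% higher, so that a count of 0 is near that share in a list of this size. At an unadjusted p under 0.05 the shares over all features were 3.72% lower and 1.86% higher. Of 72 tested members of the imprinted group on chromosome 12, 36 were above 0 and 36 below, with a median of 0.00030, 0 called and 1 with an unadjusted p under 0.05, miR-410-3p. The list holds the span from miR-379 to miR-410 and 7 chosen microRNAs upstream of it; miR-673-5p, of the same region, was not among those chosen. miR-127-3p, which lies antisense to Rtl1 in this region, had a median of 881289 in low and 883716 in high strains. Of 17 let-7 features, a family that rises as neurons mature, 12 were above 0, the median was +0.10 and 0 were called. let-7i-5p differed by -0.10 (SE 0.047, limma, adjusted p = 0.834) and let-7a-1-3p by +0.32 (95% confidence interval -0.08 to 0.73). Of 25 features of the Sfmbt2 group, which lies in an intron of that gene, 13 were above 0 and 12 below, with miR-466h-5p at +0.25 and miR-467b-5p at -0.16 (limma, adjusted p = 0.834 for each). Of 27 tested features with no microRNA name 1 was called lower, chr4_10452, 10 were above 0 and 17 below, and the median was -0.01. The 5 most abundant features, miR-181a-5p, miR-26a-5p, miR-127-3p, miR-22-3p and let-7c-5p, differed by -0.13 to +0.04, and none passed.

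The difference between the groups was also compared between strains of the earlier and of the later batches. Limma, with batch class in place of the batch shares, called 0 of 646 features for that interaction at an adjusted p under 0.05. At an unadjusted p under 0.05 there were 70 features, against 36 for the group difference in the main fit. The lowest adjusted p was 0.204, for miR-25-5p, whose difference was lower in the later batches by 0.78 on the log2 scale (SE 0.20). In none of the 10 other settings was a feature called.

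Other small RNAs that divide the panel into levels did not do so along the same line. chr10_26214, which was at the floor in the lowest strains of both groups, lay above the middle of its own widest gap in 15 of 25 low strains and 19 of 34 high strains. Its median normalized signal was 14.7 in low and 13.3 in high strains, and its difference had a 95% confidence interval from -0.83 to 1.03 (limma, adjusted p = 0.983). miR-5121 lay above its gap in 9 of 25 low strains and 17 of 34 high strains. Its median was 2.66 in low and 9.57 in high strains. On the variance-stabilized scale the median of the high strains, 5.96, was the middle of that gap, so it lay between the levels of those strains. The difference of miR-5121 was +0.69 on the log2 scale (SE 0.38, 95% confidence interval -0.08 to 1.45, limma, adjusted p = 0.834). Each of these features had both of its levels within both groups.

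Likeness to chr9_24385 across strains was limited, with a strongest Pearson correlation of 0.48. By Pearson correlation over 59 strains in the variance-stabilized table, the 5 features most strongly related to chr9_24385, in either direction, were miR-6922-5p (r = 0.48), miR-350-3p (r = -0.46), miR-3059-5p (r = -0.41), miR-7049-5p (r = 0.41) and miR-325-3p (r = -0.40). Spearman's rho was 0.53, -0.47, -0.41, 0.40 and -0.43 in that order. Without LXS41 and LXS72, the strains farthest from the median, r was 0.50, -0.45, -0.37, 0.41 and -0.36. These values were picked as the largest of 880 and share the same libraries and scaling. They rest on the same values of chr9_24385 that set the groups. They are given as a description with no test. chr4_10452, the feature called between the groups, was not among these 5, with r = -0.29 and rho = -0.21. miR-6922-5p and miR-7049-5p had mean normalized signals of 2.51 and 3.30, below the filter, where the values of the table lie on few steps. miR-350-3p ran from 90.1 to 186.5 with a median of 131.1 in low strains and from 57.9 to 160.4 with a median of 115.2 in high strains, and 26 of 34 high strains lay below the median of the low strains.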

How the data were processed

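Small RNA libraries were made with the Illumina TruSeq small RNA kit, per the labels' protocols. The authors deposited a table of normalized signal and a table of variance-stabilized values on a log2-like scale, with 1 value per LXS strain and 881 features; no source used here names the aligner, genome build or scaling. Sums per strain of the deposited normalized signal ran from 12164326 to 15093719, and the reads behind a value are unknown, which limits precision for low features. Of 51979 variance-stabilized values that the authors deposited, 422 were at the floor of 3.87. Strain columns were taken by name, and replicates were strains.

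Features with a mean normalized signal of at least 10 were fitted on log2(signal + 1), which understates changes of low features, with limma 3.58.1 (trend and robust estimation) in R 4.3.3, with batch shares as covariates and Benjamini-Hochberg adjustment over 646 features. The fit was checked on simulated data. Single measures used 100000 permutations of the group labels (SciPy 1.17.1), two-sided. P-values measure the spread between strains. Of 881 features, 681 were matched to RefSeq by mature name and 37 by the name of the hairpin, 86 had no microRNA name and 40 joined several microRNAs. Named features were those past the threshold or the 10 of smallest p, chromosome 9 features with an unadjusted p under 0.05, the 2 of smallest p of each list, the 5 most strongly correlated with chr9_24385 in either direction, the 5 most abundant, and chr10_26214 and miR-5121. Further members were named to describe their lists. The split, lists and rules were chosen with earlier results of these data known.

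The mRNA table was not used: 399 columns. Column names give a strain but not a library, and all but 4 strains have more columns than labelled libraries; of those 4, 2 are low strains, 0 are high strains, and the others are founders. Alternatives changed the covariates, table, pseudocount, filter, scaling, split, strains and test.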

Additional observations from a re-analysis of the deposited data

How the results depend on the processing

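The call of chr4_10452 held in 12 of 20 other settings, and 0 features were called in the other 8. Its difference and adjusted p in those were -0.21 and 0.553 without batch shares, -0.18 and 0.0632 in the variance-stabilized table, -0.18 and 0.0949 in that table with no filter, -0.23 and 0.0734 without strains within 0.25 of the threshold, -0.09 and 0.108 per log2 unit of chr9_24385, -0.29 and 0.679 in strains of the earlier batches, -0.22 and 0.608 in those of the later batches, and -0.21 and 0.462 in the permutation test. Fits within batches hold fewer strains, and the permutation test, like the fit without batch shares, has no batch terms. Why the call was lost in each setting was not tested.

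Of 41 named features, 32 kept their sign in each setting. The other 9 changed sign in at least 1 setting and passed in no setting. In the later batches alone these were 0.018 for miR-143-5p, 0.043 for miR-467b-5p, 0.036 for miR-29a-3p, -0.017 for miR-144-5p, 0.040 for miR-219a-5p and -0.037 for let-7c-5p. miR-26a-5p was at 0.0052 in the variance-stabilized table with or without a filter, 0.042 after quantile normalization, 0.014 in the earlier and 0.0018 in the later batches, 0.0047 without LXS9 and LXS90 and 0.023 with features at the floor as a term. miR-127-3p was at 0.0058 in the variance-stabilized table with or without a filter, 0.016 after quantile normalization, 0.0098 in the earlier and 0.0015 in the later batches. chr10_26214 was at -0.081 without batch shares and in the permutation test, -0.021 in the variance-stabilized table with or without a filter and -0.44 in the later batches. Quantile normalization gives the most abundant feature, miR-181a-5p, the same value in each strain, so it has no difference there.

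The difference in features at the floor was -1.81 in the earlier batches (permutation test, adjusted p = 0.0819). That of column totals was -489400 without strains with a batch 1 library, where it passed (permutation test, p = 0.0275, adjusted p = 0.0275). Both adjustments were over 2 measures, against 9 in the main comparison, so their adjusted p is not on the same footing as the main one. The settings without those strains, with features at the floor as a term, with the unfiltered variance-stabilized table and those of the interaction were chosen after seeing the data.

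No paired analysis was possible because the tables hold 1 value per strain. Low strains lie on the lowest steps of the table, so the spacing of the steps limits how finely they can be told apart; read depth per strain is unknown.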
